A study of Homo sapiens with 4 samples.

Results

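A set of 10 genes that encode feedback inhibitors of ERK signalling, or that report on it, were followed after depletion of LSD1 in a prostate carcinoma line. They were chosen by name, with earlier results of these libraries known: the MAP kinase phosphatase genes DUSP1, DUSP4, DUSP5, DUSP6 and DUSP7, the Sprouty genes SPRY2 and SPRY4, the Spred genes SPRED1 and SPRED2, and PHLDA1. These are 10 of 22852 gene symbols in the count tables, and all 10 were abundant enough to be tested. The cells were PC-3M-luc at passages 17 to 20, a luciferase-tagged line from metastatic human prostate carcinoma that grows without androgen. The control group received a control RNAi reagent and the knockdown group a reagent against LSD1, both delivered with the lipid Dharmafect 2, and total RNA was taken 72 h after transfection. The series' design text speaks of a knockout, whereas the sample labels give RNAi, and the labels were followed. There were 2 libraries per group, described as biological replicates with no word on what was repeated. The p-values therefore measure only the spread between these libraries, estimated for each gene largely from all genes together. The sources used here do not give the duplex sequences, and 1 knockdown condition was compared with 1 control.

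ERK is the last kinase of the cascade that runs from growth factor receptors through RAS, RAF and MEK. Active ERK raises transcription of its own inhibitors, so that the abundance of these transcripts is widely read as a record of recent pathway output. Dual-specificity phosphatases remove phosphate from ERK itself, in the nucleus or in the cytoplasm according to the family member, whereas Sprouty and Spred proteins act upstream, between the receptor and RAF. PHLDA1, a protein with a pleckstrin homology-like domain, is often listed among transcripts that depend on ERK activity.

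Counts assigned to genes ranged from 12041283 to 12832064 per library. KDM1A, the gene that encodes LSD1, was at 234.9 and 237.9 CPM (read counts scaled to library size by TMM) in the control libraries and at 17.83 and 18.07 CPM in the knockdown libraries, so the libraries matched their labels. The epithelial genes KRT8, KRT18, KRT19, EPCAM and CDH1 were present, with a summed level of 998 to 1014 CPM in control and 1067 to 1112 CPM in knockdown libraries, and 3 of these 5 were called higher and 0 lower. Of the luminal prostate markers, TMPRSS2 was at no more than 4 counts in any library and KLK2 and KLK3 were at 0. PTPRC, a marker of leukocytes, CD3E, a marker of T cells, and CDH5, a marker of endothelium, were at 0 in all 4 libraries. The summed level of 5 leukocyte markers was 88.8 to 91.0 CPM in control and 47.4 to 49.8 CPM in knockdown cells, with 1 higher and 2 lower of 3 tested. CD68 made up most of that sum, at 86.3 CPM on average in control and 45.7 CPM in knockdown cells, while LYZ rose from 0.243 to 1.20 CPM. That of 6 fibroblast and endothelial markers was 70.2 to 81.9 CPM in control and 111.4 to 113.2 CPM in knockdown cells, with 2 higher and 1 lower of 4 tested. KDR, from 24.4 to 55.1 CPM, and COL1A2, from 16.7 to 25.4 CPM, were the 2 that rose. The part of these lists in the results was not tested. Over all 13252 genes tested, 2413 were called higher and 2375 lower in knockdown cells at an adjusted p under 0.05 (edgeR quasi-likelihood test), together 36.1% of genes. The lists of genes used here were drawn up with earlier results of these libraries known, and are described by counts and medians only.

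The feedback genes did not move as a block. PHLDA1, DUSP1 and DUSP4 fell, SPRY4 rose, and DUSP5, DUSP6, DUSP7, SPRY2, SPRED1 and SPRED2 did not pass the test. With 1 member higher and 3 lower, 40% of the members were called, against 36.1% of all genes tested, 18.2% of which were higher and 17.9% lower. The median log2 fold change of the 10 members was -0.12, against 0.0024 over all genes tested, and the median size of the change regardless of sign was 0.20 against 0.23. The control and knockdown libraries did not overlap for 6 of 10 members, or 60%, against 67.2% of all genes.

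**Figure D1:**
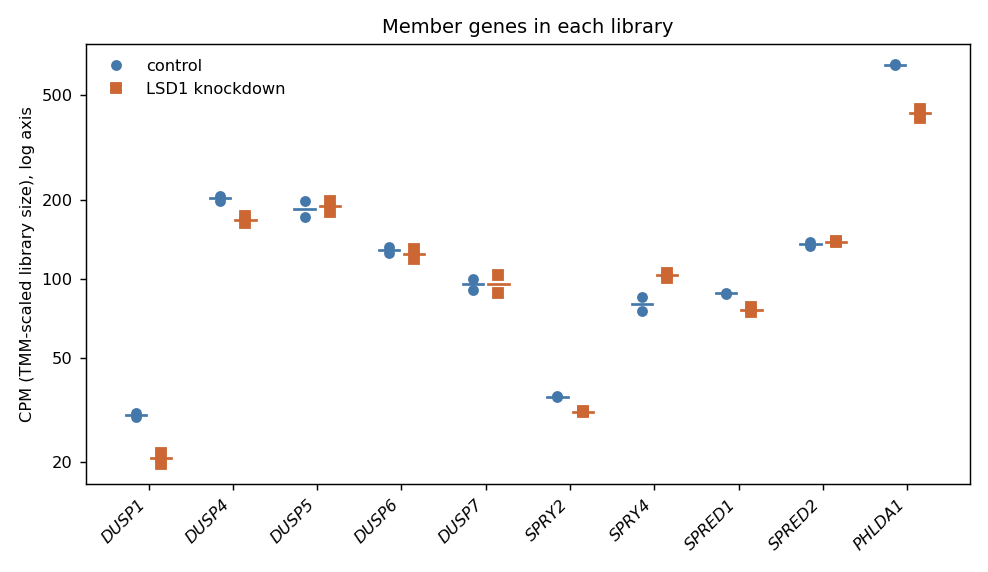
Level of each member gene in each library, in CPM on a log axis, with circles for the 2 control libraries, squares for the 2 knockdown libraries and bars for group means. The knockdown squares lie below the control circles for PHLDA1, DUSP1, DUSP4, SPRY2 and SPRED1 and above them for SPRY4.

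**Figure D2:**
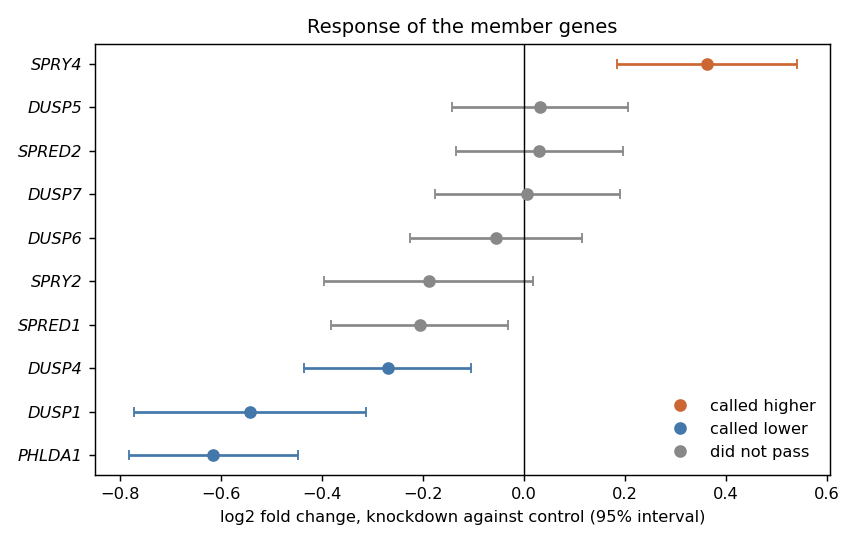
Log2 fold change of each member, knockdown against control, with its 95% interval (not adjusted for the number of genes). PHLDA1 at -0.62, DUSP1 at -0.54 and DUSP4 at -0.27 were called lower, SPRY4 at 0.36 was called higher, and the other members did not pass.

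DUSP1, a nuclear phosphatase of p38, JNK and ERK that is itself an immediate early gene, was at 29.69 and 30.68 CPM in the control libraries and at 19.71 and 21.70 CPM in the knockdown libraries. Both knockdown libraries lay below both control libraries. Group means were 30.18 ± 0.703 CPM in control and 20.71 ± 1.41 CPM in knockdown cells (SD, n = 2 each), and the log2 fold change was -0.54 ± 0.113 (SE; edgeR adjusted p = 0.00027). Raw counts were 369 and 373 against 241 and 281, the fewest of any member in the knockdown libraries.

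DUSP4, a nuclear phosphatase of ERK and JNK, was at 206.6 and 197.7 CPM in the control libraries and at 162.3 and 172.9 CPM in the knockdown libraries. The groups did not overlap, and the difference was small: a log2 fold change of -0.27 ± 0.081 (SE; edgeR adjusted p = 0.00868). The call was lost without control replicate 1, at -0.24 (adjusted p = 0.0742), and without knockdown replicate 1, at -0.23 (adjusted p = 0.0764). The tables hold a pair of RefSeq rows for DUSP4, and the values above are those of NM_001394, the row with more counts. In the other row, NM_057158, counts went from 2086 and 1931 to 1701 and 1897, a log2 fold change of -0.19 that did not pass (edgeR adjusted p = 0.0626). The surplus of the first row over the second was 482 and 473 counts in control libraries, falling to 283 and 342 after knockdown, and taken as a feature of its own it fell by 0.65 on the log2 scale (standard error 0.106, edgeR adjusted p = 1.21e-05). The call for DUSP4 therefore rests on the row chosen. The sources used here do not say how reads shared by both transcripts were assigned.

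DUSP5, a nuclear phosphatase restricted to ERK, was at 198.1 and 171.5 CPM in control libraries and at 179.8 and 197.9 CPM in knockdown libraries. The groups overlapped, with a knockdown to control ratio of 1.02 and a 95% interval of 0.906 to 1.15 (edgeR adjusted p = 0.809). DUSP6, the cytoplasmic ERK phosphatase most often used as a readout of the pathway, was at 125.3 and 132.3 CPM in control libraries and at 129.1 and 118.6 CPM in knockdown libraries. Its ratio was 0.962, with a 95% interval of 0.855 to 1.08 (edgeR adjusted p = 0.640), and a change within that interval was not detectable with these libraries. DUSP7, a second cytoplasmic ERK phosphatase, was at 90.75 and 99.44 CPM in control libraries and at 88.10 and 102.8 CPM in knockdown libraries, where the knockdown pair enclosed the control pair. Its ratio was 1.00, with an interval of 0.885 to 1.14 (edgeR adjusted p = 0.966).

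DUSP6 also has a pair of rows. Its second row, NM_022652, held 80.03% and 75.93% of the counts of NM_001946 in control libraries, against 73.51% and 71.35% after knockdown. The surplus of the first row over the second was 311 and 387 counts in control libraries, against 418 and 440 after knockdown, a log2 fold change of 0.26 that did not pass (edgeR adjusted p = 0.0651). In the GENCODE annotation the exons of DUSP6 lie over 1875 bases of AC024909.2 on the opposite strand. Counting is not stated to use strand, so reads of that antisense gene, not analysed here, could not be told apart from those of DUSP6.

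Of the Sprouty genes SPRY4 rose and SPRY2 did not pass. SPRY4, an inhibitor of RAS and RAF activation, was at 75.38 and 84.88 CPM in control libraries and at 100.9 and 104.9 CPM in knockdown libraries. Both knockdown libraries were above both control libraries, with means of 80.13 ± 6.72 and 102.9 ± 2.78 CPM (SD, n = 2 each), so that SPRY4 rose 1.28-fold, or by 0.36 ± 0.0874 on the log2 scale (SE; edgeR adjusted p = 0.00139). Without control replicate 1, the lower of the control libraries, the log2 fold change was 0.28 and the call was lost (edgeR adjusted p = 0.0563). Its second row, NM_001127496, differed by no more than 5 counts in any library and gave the same log2 fold change of 0.36. SPRY2, the other Sprouty gene among the members, was at 35.40 and 35.70 CPM in control libraries and at 31.00 and 31.35 CPM in knockdown libraries. These groups did not overlap, yet the ratio of 0.877 had an interval of 0.76 to 1.01 and did not pass (edgeR adjusted p = 0.148). The difference in response between SPRY4 and SPRY2 was not tested.

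SPRED1 and SPRED2 encode Spred proteins, which bring neurofibromin, a RAS inactivator, to the plasma membrane. SPRED1 was at 88.33 and 87.51 CPM in control libraries and at 77.96 and 74.45 CPM in knockdown libraries. The groups did not overlap, and the log2 fold change of -0.21 narrowly missed the threshold (standard error 0.086, edgeR adjusted p = 0.0588). With the replicate number as a block it passed at the same value (edgeR adjusted p = 0.0371), though nothing in the labels says that the numbers mark a shared batch. SPRED2 was at 132.7 and 138.1 CPM in control libraries and at 139.0 and 137.6 CPM in knockdown libraries, with a ratio of 1.02 and an interval of 0.91 to 1.15 (edgeR adjusted p = 0.804).

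PHLDA1 had the largest change of the 10. It was at 656.0 and 648.1 CPM in control libraries and at 408.0 and 443.0 CPM in knockdown libraries, with raw counts of 8154 and 7880 against 4988 and 5736. The control libraries differed from each other by far less than from either knockdown library. Group means were 652.1 ± 5.55 and 425.5 ± 24.7 CPM (SD, n = 2 each), so that PHLDA1 fell 1.53-fold, a log2 fold change of -0.62 ± 0.0822 (SE; edgeR adjusted p = 4.26e-07). By size of change it stood at place 1825 of the 13252 genes tested, so larger changes than this were common in these cells. Exons of PHLDA1 lie over 553 bases of AC011611.3 and 779 bases of AC011611.4 on the opposite strand, and reads of those genes, not analysed here, could not be told apart from its own.

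The genes nearest to PHLDA1 in their profile over the 4 libraries were IER3, an immediate early gene that also appears in the list of ERK targets, FSCN1, which encodes the actin bundling protein fascin, and ABHD16B. The measure was the Euclidean distance between gene-centred log2 CPM profiles, and it was 0.0212 for IER3, 0.0216 for FSCN1 and 0.025 for ABHD16B. With 4 libraries many genes lie close: 80 of 10925 genes whose mean reached 5 CPM were within a distance of 0.1. IER3 was at 91.63 and 91.38 CPM in control and 57.91 and 62.79 CPM in knockdown libraries. FSCN1 fell by 0.60 and ABHD16B by 0.61 on the log2 scale (edgeR adjusted p = 5.36e-07 and 0.000422). All 3 genes were picked for nearness to PHLDA1 in these libraries, so falls of this size follow from the choice and test nothing. IER3 shares 359 bases with IER3-AS1 and ABHD16B 1491 bases with AL118506.1, on the opposite strand in both cases.

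To compare levels between genes, CPM was divided by the length of the GENCODE transcript linked to each row, which may differ from the transcript model the authors counted. On this scale of CPM per kilobase PHLDA1 was the most abundant in control cells at 110.3 ± 0.938 (SD, n = 2), followed by DUSP5 at 72.3 ± 7.37. DUSP4 at 36.5 ± 1.13, SPRED2 at 33.05 ± 0.925, DUSP6 at 29.3 ± 1.12 and DUSP7 at 28.5 ± 1.84 came next, and the last pair did not differ beyond their spread. SPRY2 at 16.8 ± 0.1, SPRY4 at 16.2 ± 1.36, DUSP1 at 14.9 ± 0.348 and SPRED1 at 11.3 ± 0.0743 were lowest, and the means of SPRY2 and DUSP1 lay within 1 SD of that of SPRY4. In knockdown cells DUSP5 at 73.85 ± 4.99 and PHLDA1 at 71.96 ± 4.18 no longer differed beyond their spread. SPRY4 at 20.84 ± 0.563 then stood above SPRY2 at 14.77 ± 0.118 in both libraries, and the libraries of DUSP1 at 10.26 ± 0.696 and SPRED1 at 9.79 ± 0.319 overlapped.

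The promoters of DUSP1 and PHLDA1, which fell, and of SPRY4, which rose, are shown because these are the members with calls that have a single RefSeq promoter window. The promoter table matched 8 of 10 members, without DUSP4 and DUSP5. Each is the 250 bases before the transcript start, 5′ to 3′ on the strand of the gene, all 3 on the minus strand, from RefSeq on GRCh38.p14. Capitals mark matches on either strand to the cAMP response element TGACGTCA, the AP-1 site TGANTCA or the ETS core CCGGAA.
DUSP1, chr5:172771196-172771445: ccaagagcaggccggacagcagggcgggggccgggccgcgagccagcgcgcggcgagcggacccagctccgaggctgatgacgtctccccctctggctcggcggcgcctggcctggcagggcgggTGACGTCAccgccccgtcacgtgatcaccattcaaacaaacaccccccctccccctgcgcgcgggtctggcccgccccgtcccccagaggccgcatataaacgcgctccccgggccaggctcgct
PHLDA1, chr12:76031777-76032026: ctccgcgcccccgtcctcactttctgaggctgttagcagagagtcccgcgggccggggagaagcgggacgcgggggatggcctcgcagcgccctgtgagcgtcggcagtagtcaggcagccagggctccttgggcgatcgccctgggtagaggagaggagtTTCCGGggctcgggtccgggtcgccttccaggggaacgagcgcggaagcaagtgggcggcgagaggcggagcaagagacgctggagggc
SPRY4, chr5:142324248-142324497: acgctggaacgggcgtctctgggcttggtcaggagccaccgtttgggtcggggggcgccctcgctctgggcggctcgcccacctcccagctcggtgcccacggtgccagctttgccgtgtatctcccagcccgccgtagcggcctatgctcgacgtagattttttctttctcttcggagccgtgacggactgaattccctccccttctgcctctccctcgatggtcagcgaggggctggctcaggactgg
DUSP1 held TGACGTCA from position -125 to -118, a match found in 1.65% of 35116 promoter windows of this length, and a TATAAA from -30 to -25, found in 10.7%. PHLDA1 held CCGGAA on its minus strand from -89 to -84, a match found in 14.5% of windows. SPRY4 held none of the 3 capitalised motifs and had the shorter TGACG from -68 to -64, letters present in 21.2% of windows. DUSP1 held TGACG as well, within its response element and, apart from it, from -172 to -168 and from -111 to -107. It also held CACGTG from -108 to -103, found in 6.3% of windows. TGANTCA, the letters bound by JUN and FOS proteins, was found in 6.57% of all windows and in none of these 3. These matches describe the letters of the windows and were not tied to binding in these cells.

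Short sequences in the transcripts themselves were also searched, because the share of genes called lower or higher differed between genes with and without certain 7-mers. The 7-mer CTAGAAG, the 7-mer beginning with its second letter, TAGAAGA, and the longer word that joins them, CTAGAAGA, were picked after fold changes of these libraries had been seen. All occur in KDM1A, and whether they belong to the duplex is not known. The sites in DUSP1 and PHLDA1, with 1 of the 2 in KDM1A for comparison, are shown from GENCODE transcripts, 5′ to 3′ in 30 bases, with the match in capitals.
DUSP1, 3′ UTR: attgtctactcCTAGAAGAaccaaatacct
PHLDA1, 3′ UTR: atatagtttgtCTAGAAGtttaaaaagcta
PHLDA1, 3′ UTR: ggcagatccaaTAGAAGAcccgctccttaa
PHLDA1, 3′ UTR: agtagcagcctTAGAAGAgtggtctaagac
KDM1A, coding sequence: cacaaggaaagCTAGAAGAaaaacttcagg
DUSP4 held 1 copy each of CTAGAAG and TAGAAGA in its 3′ UTR. SPRY4 held 1 CTAGAAG in its coding sequence, and the other 6 members held neither. These words were picked after fold changes had been seen, so neither the matches nor the shares below test their part. Among 12818 tested genes with a transcript, 16.3% held either 7-mer in the 3′ UTR, and 20.8% of these were called lower, against 17.5% of genes with no match there. The longer CTAGAAGA, which DUSP1 alone of the members holds, was in the 3′ UTR of 3% of genes, of which 27.5% were called lower against 17.8% of the rest. Holders have longer transcripts, with a median of 5032 bases for either 7-mer in the 3′ UTR against 2709 for genes without it. For CTAGAAGA these medians were 5482 and 2918 bases. A second group of 4 such 7-mers was also picked after fold changes had been seen, so its shares are likewise no test. It held TACTTCG with its overlapping neighbour ACTTCGA, and GCGTACA with its overlapping neighbour CGCGTAC. Of the 379 genes with any of these in the 3′ UTR, 40.4% were called higher against 17.6% of genes without, and 8.71% lower against 18.4%. These holders also had longer transcripts, with a median of 5051 bases against 2920. Among the members DUSP6, which did not pass, held 1 ACTTCGA in its coding sequence, and the other 9 held none. KDM1A held none of this second group either. The part of these sequences in the falls of DUSP1, DUSP4 and PHLDA1 was not tested.

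Among close paralogues of the members DUSP2, DUSP8 and SPRY1 rose and DUSP10 fell. Of 8 paralogues, 7 were tested, with 3 higher, 1 lower and 3 that did not pass, and a median log2 fold change of 0.53. The share called was 57.1%, against 36.1% of all genes tested, a difference that was not tested. DUSP2, a nuclear phosphatase, was at 11.18 and 10.53 CPM in control and 19.63 and 20.00 CPM in knockdown libraries, a 1.82-fold rise (edgeR adjusted p = 4.5e-06). DUSP8, a phosphatase of JNK and p38, rose 1.65-fold from 7.00 and 7.16 to 10.31 and 13.05 CPM (edgeR adjusted p = 0.000838). SPRY1 rose 1.44-fold, from 37.97 and 40.06 to 53.74 and 58.93 CPM (edgeR adjusted p = 4.47e-05), so that SPRY1 and SPRY4 were called higher and SPRY2 was not. DUSP10, a phosphatase of JNK and p38, fell from 7.16 and 6.09 to 3.19 and 5.02 CPM (edgeR adjusted p = 0.0134). That call was lost with DESeq2 (adjusted p = 0.117), without control replicate 1 at -0.56 (adjusted p = 0.105) and without knockdown replicate 1 at -0.41 (adjusted p = 0.228). DUSP9, named after its values were seen, had 11 and 10 counts against 21 and 20 and did not pass (edgeR adjusted p = 0.0671). Whether the paralogues differ from the members as a group was not tested.

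Within the cascade the MEK genes went opposite ways. Among 17 cascade genes tested, 3 were called higher, 2 lower and 12 neither, with a median log2 fold change of 0.07. The share called was 29.4%, against 36.1% of all genes tested. MAPK3, which encodes ERK1, rose 1.41-fold from 33.79 and 29.94 to 42.95 and 46.72 CPM (edgeR adjusted p = 0.000246). MAP2K2, which encodes MEK2, rose 1.36-fold (edgeR adjusted p = 7.75e-05), whereas MAP2K1, which encodes MEK1, fell 1.35-fold (edgeR adjusted p = 0.00106). The RAF gene ARAF rose 1.36-fold (edgeR adjusted p = 0.000102), and the adaptor gene SHC1 fell 1.20-fold (edgeR adjusted p = 0.0132). The SHC1 call was lost without control replicate 1 at -0.26, without control replicate 2 at -0.26 and without knockdown replicate 1 at -0.22 (adjusted p from 0.0532 to 0.0977). SHC1 shares 335 exonic bases with PYGO2 and 326 with AL451085.2, and ARAF shares 23 with SYN1. MAP2K1 shares 216 with SNAPC5 and 432 with AC116913.1. The values of these genes are uncertain to that degree.

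Among 11 other inhibitors of the pathway tested, 5 were called higher, 1 lower and 5 neither, against 18.2% higher and 17.9% lower over all genes, with a median log2 fold change of 0.15. RASA1 and RASAL2, which encode activators of RAS GTP hydrolysis, rose 1.56-fold and 1.66-fold (edgeR adjusted p = 8.91e-07 and 2.77e-05). RASA1 lies over 771 exonic bases of CCNH on the opposite strand, whose row was as abundant at a mean count of 1120 against 978, so the RASA1 value is uncertain. IL17RD, which encodes the FGF receptor inhibitor Sef, rose 1.47-fold (edgeR adjusted p = 0.000116), and the ubiquitin ligase genes CBL and CBLB, the second named after its values were seen, rose 1.24-fold and 1.25-fold (edgeR adjusted p = 0.00836 and 0.0125). Without control replicate 1 neither passed, with CBL at 0.25 (edgeR adjusted p = 0.125) and CBLB at 0.23 (edgeR adjusted p = 0.202) on the log2 scale, and 3 genes of the list were called higher. CBLB also lost its call with DESeq2 (adjusted p = 0.0787) and without knockdown replicate 2 (edgeR adjusted p = 0.0523). ERRFI1, a feedback inhibitor of the EGF receptor, fell 1.32-fold, from 521.5 and 504.8 to 407.5 and 370.1 CPM (edgeR adjusted p = 0.000238). On the opposite strand RASAL2 shares 563 exonic bases with CLEC20A, CBL 509 with MCAM and ERRFI1 155 with AL034417.4.

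Further transcripts known to depend on ERK were called in either direction. Among 12 tested, 3 were higher, 4 lower and 5 not called, with a median log2 fold change of -0.12. The share called was 58.3%, against 36.1% of all genes tested, a difference that was not tested. The factor gene ETS1 fell 2.09-fold from 80.77 and 88.17 to 42.37 and 38.38 CPM, the largest fall in these lists (edgeR adjusted p = 1.06e-10). FOSL1, an AP-1 subunit gene, fell 1.53-fold, IER3 1.52-fold and PLAUR, the urokinase receptor gene, 1.35-fold (edgeR adjusted p = 3.22e-07, 2.11e-06 and 0.00235). The PLAUR call was lost without knockdown replicate 1, at -0.31 (adjusted p = 0.0599). ETV4, an ETS factor gene, rose 1.29-fold (edgeR adjusted p = 0.000888), ETS2 1.23-fold (edgeR adjusted p = 0.00978) and ETV1 1.19-fold (edgeR adjusted p = 0.043). ETV4 shares 68 exonic bases with DHX8 on the opposite strand. ETS2 lost its call without either control library, at 0.29 both times (adjusted p = 0.0601 and 0.0551), and ETV1 lost it in 6 of 13 alternatives, among them each library left out, with values from 0.20 to 0.30. The 5 that did not pass lay between -0.19 and 0.15, and EGR1, an immediate early gene, was too scarce to test at no more than 3 counts in any library.

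**Figure D3:**
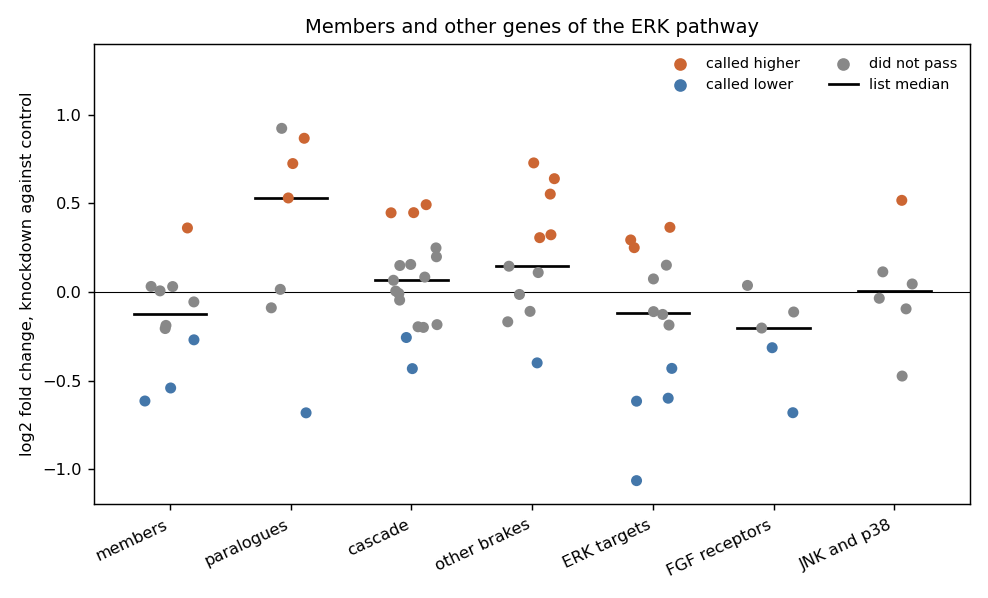
Log2 fold change, knockdown against control, of each tested member and of each tested gene in 6 other lists of the ERK and related pathways, with 1 point per gene coloured by its call and a bar at each list's median. The medians run from -0.20 for FGF receptors to 0.53 for the paralogues, and calls in both directions occur among members, paralogues, cascade genes, other brakes and ERK targets.

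Of 8 genes for FGF receptors, their ligands and an adaptor, 5 were tested, with 2 lower, 0 higher and 3 that did not pass. In a sum over the rows of each symbol FGF1 was called higher (1.21 on the log2 scale, edgeR adjusted p = 0.0495), and without knockdown replicate 2 FGF2 was called lower (-0.37, edgeR adjusted p = 0.027), both named after their values were seen. FGFR1 fell 1.60-fold from 82.38 and 77.07 to 47.85 and 51.51 CPM (edgeR adjusted p = 4.18e-07), and FGFRL1, which encodes a receptor without a kinase domain, fell 1.24-fold (edgeR adjusted p = 0.00292). FGFR1 shares 138 exonic bases with LETM2 and 156 with AC087623.1. FGFR2 and FGFR3 were at no more than 5 counts in any library. Of 6 tested genes for JNK and p38, which DUSP1 inactivates, MAPK14, the p38 alpha gene, rose 1.43-fold from 37.49 and 38.25 to 54.81 and 53.60 CPM (edgeR adjusted p = 5.3e-05), and 5 did not pass. Of these MAPK8, a JNK gene named after its values were seen, was at -0.47 (edgeR adjusted p = 0.0573) and was called lower with the replicate block (adjusted p = 0.0446) and in a sum over rows (adjusted p = 0.0254). Taken over all 6 lists, 15 of 58 tested genes rose and 10 fell, so 43.1% were called against 36.1% of all genes tested. The share called was 40% in the FGF receptor list and 16.7% in the JNK and p38 list.

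**Figure D4:**
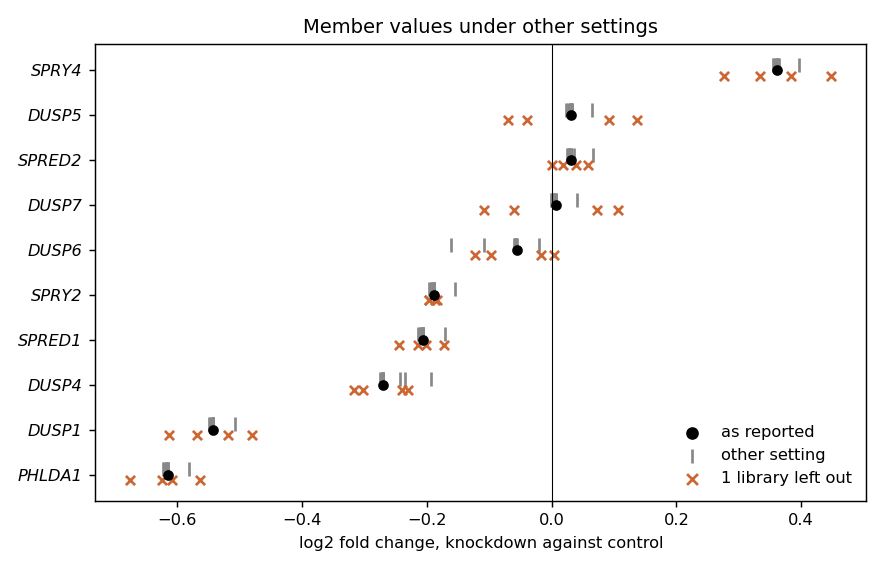
Log2 fold change of each member as reported (circle), under 9 other settings of normalization, filter, test, block and row (bars) and with each of the 4 libraries left out (crosses). PHLDA1, DUSP1, DUSP4, SPRED1 and SPRY2 lie below 0 and SPRY4 above 0 in each setting shown, whereas DUSP5, DUSP6, DUSP7 and SPRED2 lie on both sides of 0.

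Across these settings PHLDA1 ranged from -0.68 to -0.56 and DUSP1 from -0.61 to -0.48, and both were called lower in all 13 alternatives. SPRY4 ranged from 0.28 to 0.45 and was called in 12 of 13. DUSP4 ranged from -0.32 to -0.19 and was called in 10 of 13. SPRY2 ranged from -0.20 to -0.15 and was called in none of the 13, with an adjusted p of 0.123 or more.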

How the data were processed

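Gene counts came from 4 RNA-seq libraries of PC-3M-luc cells. The authors deposited 1 table of raw read counts per RefSeq transcript for each library, judged from the values, which are whole numbers with differing totals. The submitters' processing notes name TopHat2 2, HOMER, edgeR, DESeq 1.8.3 and hg19 without their roles. The sources used here give neither strand nor counting options.

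Of 38767 rows, 37205 were matched to symbols by RefSeq (GRCh38.p14) and 472 by GENCODE 29 metadata; 1090 unmatched rows, holding 1.38% to 1.40% of counts, were left out. The row with the highest mean stood for each of 22852 symbols. Counts were scaled by TMM, filtered with filterByExpr (count 10, total 15) and tested with edgeR 4.0.16 in R 4.3.3 (quasi-likelihood, group only, Benjamini-Hochberg over 13252 genes, threshold 0.05). Standard errors are the log2 fold change divided by the root of F. The common dispersion gave a biological coefficient of variation of 5.96%. The median total degrees of freedom were 32.3, against 2 from the design, so most of each gene's variance estimate came from all genes. At these depths, 3 counts in a library are 0.234 to 0.249 CPM, which covers counting error only. Tested on simulated data (13151 genes, same design), the fit found 79.1% of 67 planted changes of 1.5-fold. It found 95.5% of 67 of 2-fold and 100% of 66 of 4-fold, and 6.63% of its 196 calls were false. Each simulated gene had the common dispersion, and only 200 genes of at least 1 CPM were changed. In the real libraries variance was estimated per gene and 36.1% of genes were called, so these shares need not hold there.

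Members and lists were chosen with earlier results of these data known. Named genes are KDM1A, the members, up to 4 called genes per list and direction with the smallest adjusted p, and the 3 genes nearest to the called member with the largest change. Alternatives were RLE size factors, no factor, no filter, 1 CPM in 2 libraries, DESeq2 1.42.0, limma-voom (limma 3.58.1), the replicate block, sums over rows, each library left out and, added after seeing the data, the other row of 4 members and the difference between rows. Libraries of 1 group differed by more than counting noise (chi-square per gene 5.00 and 4.30).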

Additional observations from a re-analysis of the deposited data

How the results depend on the processing

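All 13 alternatives kept KDM1A called lower, at -3.73 to -3.68. DESeq2 called 1564 genes higher against 2413, and 1618 lower against 2375. Leaving out 1 library gave 1771 to 1991 genes higher and 1889 to 1999 lower, 0 to 1 members higher and 2 to 3 lower, and 11 to 14 other pathway genes higher and 9 to 12 lower; with 1 library in a group, that library is assumed to vary like the others. The member that lost its rise was SPRY4, without control replicate 1. Members near 0 changed sign with a library left out: DUSP5 ranged from -0.0701 to 0.137, DUSP6 from -0.124 to 0.0044, DUSP7 from -0.11 to 0.107 and SPRED2 from -8.37e-05 to 0.0583. DUSP7 was also at -0.0017 in a sum over rows. Of 481 single-gene values, 453 kept direction and call, 20 lost the call, 1 gained it and 7 changed sign; the cause was not tested. With the replicate number as a block, 2632 genes were higher and 2634 lower, 1 member was higher and 4 lower, and SPRED1 was the member that gained a call. Same-numbered libraries' deviations correlated at 0.139 over 10935 genes, and the labels tie the numbers to no shared batch. The standard error was largest for the members with fewest counts: DUSP1, with at least 241 counts per library, had a standard error of 0.113 and DUSP4 one of 0.081. Changes below 1.5-fold were not simulated.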
